A study of Mus musculus with 13 samples.

Results

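The 7 genes described here encode the MHC class II antigen presentation machinery of the mouse small intestine: the class II chains H2-Aa, H2-Ab1 and H2-Eb1, the peptide exchange chains H2-DMa and H2-DMb1, the invariant chain Cd74 and the transactivator Ciita. They were taken by gene symbol from the deposited count tables and joined by Ensembl identifier, and all 7 were found in both tables, among 21420 identifiers that both tables hold and 25183 in either.

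The study compared crypts, the epithelial pockets of the small intestine that house its stem cells, and organoids, which are cultures of epithelium grown from crypts, by strand-specific RNA sequencing of polyadenylated RNA. The groups were Eed KO crypts (labelled Eed-/-, n = 3), Ezh2 KO crypts (labelled Ezh2-/-, n = 3) and WT crypts (n = 3), all of the strain background C57BL/6-FVB mixed and all from mice given beta-naphthoflavone for 6 weeks from the age of 6 weeks, so that the mice were 12 weeks old. Organoids were Eed KO (AhCre with floxed Eed alleles, strain C57BL/6-FVB, n = 2) and WT (AhCre alone, strain FVB, n = 2), both given the same compound for 10 days. AhCre is a recombinase under a promoter that responds to the aryl hydrocarbon receptor, which beta-naphthoflavone stimulates, and it removes floxed alleles in epithelium that the compound reaches. AhCre is named in the labels of every organoid and of the run 440 crypts, the WT ones included, and not in those of the run 385 crypts. Eed and Ezh2 are subunits of Polycomb repressive complex 2, the enzyme that methylates lysine 27 of histone H3. A library's name gives its group, its sequencing run (385 or 440) and its number. Run 385 held 2 Eed KO crypts, 2 WT crypts and all 4 organoid libraries, and run 440 held 1 Eed KO crypt, the 3 Ezh2 KO crypts and 1 WT crypt.

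As background, MHC class II proteins are pairs of an alpha and a beta chain that show peptides from endocytosed proteins to CD4+ T cells. H2-Aa and H2-Ab1 form the I-A molecule, and H2-Eb1 is the beta chain of I-E. The invariant chain Cd74 blocks the groove and guides new class II molecules to endosomes, where the H2-DM pair helps to exchange the remnant of Cd74 for peptide. Ciita does not bind DNA itself but is recruited to the X and Y boxes of class II promoters by the RFX complex, NF-Y and CREB. B cells, dendritic cells and macrophages express these genes constitutively, and intestinal epithelium can express them on exposure to interferon gamma, which acts through Irf1, among other factors, on a promoter of Ciita.

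The 5 class II chains lie in the H2 region, where the deposited tables place H2-DMa at chr17:34135182-34139101, H2-DMb1 at chr17:34153072-34160223, H2-Ab1 at chr17:34263209-34269418, H2-Aa at chr17:34282744-34287827 and H2-Eb1 at chr17:34305883-34316199 (GRCm38, positions of the run 385 table). All 7 genes are annotated as protein coding.

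The promoters of H2-Aa, H2-Eb1 and H2-DMb1 are shown because they carry the boxes through which Ciita acts, and because these are the members whose listed start lay close to the deposited gene start. The sequences are from RefSeq (GRCm38.p6), from 250 bases before to 50 bases after the start of transcription, printed 5′ to 3′ on the strand of the gene. They cover chr17:34287774-34288073 (minus strand) for H2-Aa, chr17:34305617-34305916 (plus strand) for H2-Eb1 and chr17:34152941-34153240 (plus strand) for H2-DMb1. Capitals mark the core of the X box (GNAAC) and the Y box (TGATTGG), which holds the CCAAT motif on the opposite strand.
H2-Aa: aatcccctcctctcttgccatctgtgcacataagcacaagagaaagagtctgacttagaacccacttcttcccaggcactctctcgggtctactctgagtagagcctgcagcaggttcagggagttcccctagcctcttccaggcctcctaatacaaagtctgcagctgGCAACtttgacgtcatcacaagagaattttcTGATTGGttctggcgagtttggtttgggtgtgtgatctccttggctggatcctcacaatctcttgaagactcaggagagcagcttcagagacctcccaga
H2-Eb1: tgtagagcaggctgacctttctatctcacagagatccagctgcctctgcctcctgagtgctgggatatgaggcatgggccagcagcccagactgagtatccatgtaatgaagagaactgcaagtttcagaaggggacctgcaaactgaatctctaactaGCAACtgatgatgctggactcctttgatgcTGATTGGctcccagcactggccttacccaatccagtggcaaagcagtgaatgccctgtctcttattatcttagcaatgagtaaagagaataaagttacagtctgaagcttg
H2-DMb1: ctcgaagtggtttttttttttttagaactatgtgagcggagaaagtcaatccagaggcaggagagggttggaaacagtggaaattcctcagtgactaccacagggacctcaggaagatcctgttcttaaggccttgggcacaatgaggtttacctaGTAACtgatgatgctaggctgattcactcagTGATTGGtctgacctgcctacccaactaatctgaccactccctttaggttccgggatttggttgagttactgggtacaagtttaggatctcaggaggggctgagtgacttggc
In all 3, GNAAC stood upstream of TGATTGG with 25 or 26 bases between them, and the Y box began 50 bases before the start in H2-Aa, 61 in H2-Eb1 and 63 in H2-DMb1. Searched on both strands, TGATTGG was in 7.82% of the 32851 promoters of the same length, GNAAC in 84.8%, and GNAAC followed after 15 to 40 bases by TGATTGG in 0.715%. The letters and the spacing were chosen after these promoters had been read, and a match describes the sequence and is not a measured binding site. The RefSeq start of H2-DMb1 lay 119 bases inside the deposited gene. The promoter windows listed for H2-DMa lay far upstream of the deposited gene start and are not shown, and H2-Ab1, Ciita and Cd74 had no entry.

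The 13 libraries held 11421666 to 18300644 counts. The targeted genes followed the labels: Eed was at 15.9 to 25.0 CPM (counts scaled to library size) in Eed KO crypts and 50.1 to 60.3 CPM in WT crypts, Ezh2 was at 17.7 to 21.8 CPM in Ezh2 KO crypts and 72.2 to 95.3 CPM in WT crypts, and Eed was at 19.2 and 30.5 CPM in Eed KO organoids and 73.5 and 62.4 CPM in WT organoids. Ezh2 was also lower in Eed KO crypts than in WT crypts, at 52.1, 53.0 and 33.3 CPM. Levels of the X-linked Xist and the Y-linked Ddx3y showed that sex differed with group within run 385. There the Eed KO crypts had at least 1839 CPM of Xist, and the WT crypts had at most 2.75 CPM of Xist and at least 35.6 CPM of Ddx3y. All 5 run 440 crypts had at least 289 CPM of Xist and no Ddx3y count. Among organoids the order was the other way round, with at most 1.45 CPM of Xist and at least 47.6 CPM of Ddx3y in Eed KO and at least 1308 CPM of Xist in WT. The part of sex in the results below was not tested. Whether libraries of 1 group are separate animals or cultures is not in the labels, and the spread that the p-values rest on may be technical.

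4 crypt libraries stood apart at the H2 region, namely the 3 Ezh2 KO crypts and WT crypt 440_1. Counts of H2-Eb1 divided by those of H2-Aa, a ratio within each library that needs no scaling, were 1.41, 1.01 and 1.03 in Eed KO crypts 385_1, 385_2 and 440_1. The ratio was 0.0786, 0.0695 and 0.0724 in Ezh2 KO crypts, and 1.17, 1.13 and 0.0580 in WT crypts 385_1, 385_2 and 440_1. The 4 libraries were thus more than 10-fold below the other 5, and WT crypt 440_1 lay with the Ezh2 KO crypts rather than with the other WT crypts.

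Other genes of chromosome 17, chosen after their values had been seen, split the crypts in the same way. H2-T22, a non-classical class I gene, was at 36.6, 40.02 and 51.6 CPM in Eed KO crypts, at 2.69, 3.23 and 4.04 CPM in Ezh2 KO crypts, and at 26.2, 31.2 and 4.84 CPM in WT crypts 385_1, 385_2 and 440_1. The class II pseudogene H2-Ea-ps had no count in Eed KO crypts, 2.79 to 3.62 CPM in Ezh2 KO crypts and 0.0890, 0.0917 and 5.52 CPM in the WT crypts in that order. In organoids, H2-T22 was at 14.6 and 24.7 CPM in Eed KO and at 0.977 and 1.37 CPM in WT, whose labels give another strain. Inbred strains differ in their H2 haplotype, and reads of an allele that differs from the reference genome can be lost in alignment. The labels give 1 mixed strain background for all crypts and no haplotype, and the part of these differences in the results was not tested. Within run 385 all 4 crypts were of one pattern. Within run 440 the Ezh2 KO and WT crypts were of the other, and the Eed KO crypt was not. For the class II genes and Ciita, Eed KO and WT crypts are therefore compared below for both runs and for run 385 alone. For the other gene lists, fits of run 385 alone are given only in places.

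**Figure D1:**
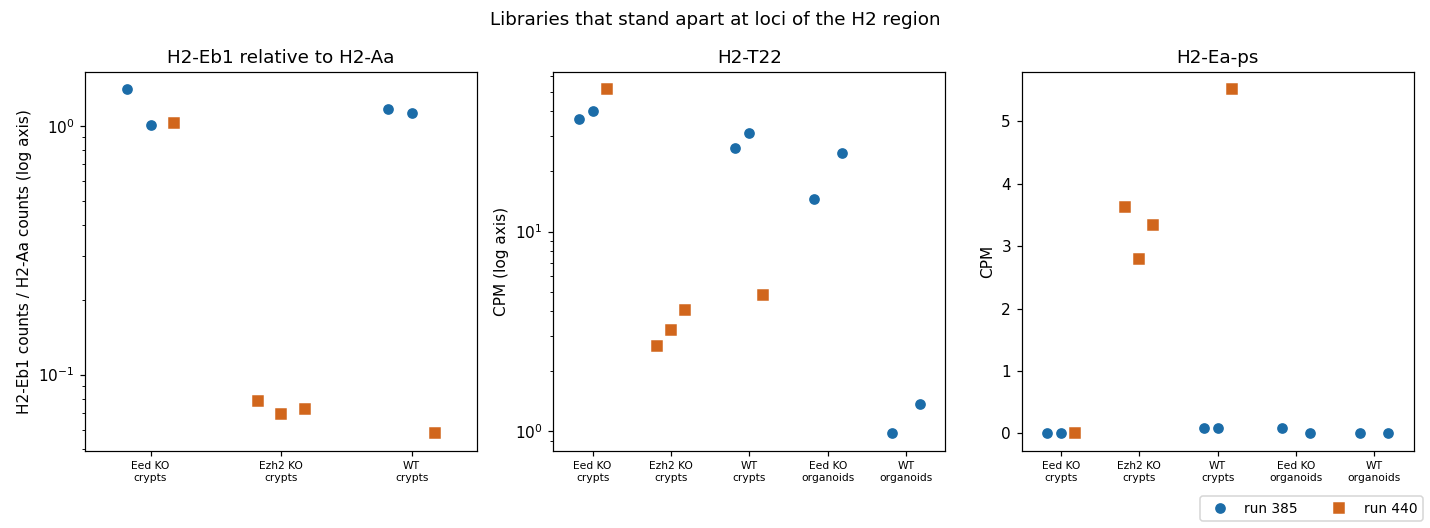
Left, counts of H2-Eb1 divided by counts of H2-Aa in each crypt library (log axis); middle and right, CPM of H2-T22 (log axis) and of H2-Ea-ps in each of the 13 libraries, with circles for run 385 and squares for run 440. Ezh2 KO crypts and WT crypt 440_1 had ratios of 0.0580 to 0.0786, against 1.01 to 1.41 in the other 5 crypts.

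In Eed KO crypts, 6 of the 7 genes were lower than in WT crypts: Ciita, Cd74, both I-A chains and both H2-DM chains. The decrease was largest for H2-DMa, which fell by 1.94 on the log2 scale, and smallest for H2-DMb1, which fell by 0.70, and H2-Eb1 showed no difference past the threshold. Of 14406 genes tested in the 9 crypt libraries, 10.6% were called lower and 24.0% were called in either direction by the quasi-likelihood test of edgeR with Benjamini-Hochberg adjustment at 0.05, which is the test behind every adjusted p-value here. The median log2 fold change of the 7 genes was -1.38, against -0.04 over all genes tested. Fewer cells that express a gene and less of its RNA per cell cannot be told apart in these bulk samples.

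Ciita, the transactivator (chr16:10488178-10527564, GRCm38), was at 17.9, 13.2 and 29.6 CPM in Eed KO crypts 385_1, 385_2 and 440_1, against 33.5, 51.5 and 64.2 CPM in WT crypts 385_1, 385_2 and 440_1. Every Eed KO crypt was below every WT crypt. The log2 fold change was -1.33 (SE 0.22, adjusted p = 0.0033). In run 385 alone it was -1.48 (SE 0.28, adjusted p = 0.0060).

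The I-A alpha chain gene H2-Aa had 92.5, 73.1 and 149 CPM in Eed KO crypts, against 129, 244 and 654 CPM in WT crypts. The groups overlapped across runs, since Eed KO crypt 440_1 was above WT crypt 385_1, but within each run the Eed KO crypts were lower. The log2 fold change was -1.49 (SE 0.29, adjusted p = 0.0065), and with the replicate number as a block the adjusted p was 0.065. Its partner H2-Ab1 had 89.3, 62.7 and 167 CPM in Eed KO crypts, against 161, 291 and 545 CPM in WT crypts, with a log2 fold change of -1.61 (SE 0.25, adjusted p = 0.0024). Here too the overlap was between Eed KO crypt 440_1 and WT crypt 385_1. In run 385 alone, H2-Aa changed by -1.20 (adjusted p = 0.022) and H2-Ab1 by -1.60 (adjusted p = 0.0077).

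H2-Eb1, the I-E beta chain gene, had 130, 73.8 and 153 CPM in Eed KO crypts, against 152, 276 and 37.9 CPM in WT crypts 385_1, 385_2 and 440_1. The low value of WT crypt 440_1 is the one described above, and it lay below all Eed KO crypts. With both runs the log2 fold change was -0.12 (SE 0.62, adjusted p = 0.91). In run 385 alone it was -1.09 (SE 0.36, adjusted p = 0.059). In run 440 alone, with 1 Eed KO and 1 WT crypt and the spread taken from the 3 Ezh2 KO crypts, it was 2.04 (SE 0.32, adjusted p = 0.021), opposite in sign. That fit was chosen after the data had been seen. With Eed KO crypt 440_1 left out, H2-Eb1 was called lower at -1.14 (adjusted p = 0.029), and likewise with WT crypt 440_1 left out at -1.07 (adjusted p = 0.039).

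H2-DMa, the alpha chain of the peptide exchange factor, had 14.8, 9.73 and 33.0 CPM in Eed KO crypts, against 35.2, 56.6 and 135 CPM in WT crypts. The groups did not overlap. The log2 fold change was -1.94 (SE 0.23, adjusted p = 0.00064), and in run 385 alone it was -1.93 (adjusted p = 0.0031). The beta chain H2-DMb1 had 20.6, 15.2 and 30.4 CPM in Eed KO crypts, against 21.9, 36.0 and 50.2 CPM in WT crypts, so Eed KO crypt 440_1 lay above WT crypt 385_1. Its log2 fold change was -0.70 (SE 0.21, adjusted p = 0.043), with adjusted p = 0.185 in the block fit and 0.107 in run 385 alone. It lost the call when any 1 of 8 of the 9 crypts was left out, WT crypt 385_1 being the exception, with log2 fold changes of -0.82 to -0.48. Reads shared with the near-identical neighbour H2-DMb2 may be assigned to either gene or discarded, which makes the level of H2-DMb1 uncertain.

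The H2-DM chains are needed as a pair, and their relative counts shifted. Counts of H2-DMb1 divided by those of H2-DMa were 1.39, 1.57 and 0.920 in Eed KO crypts 385_1, 385_2 and 440_1, 0.417, 0.463 and 0.426 in Ezh2 KO crypts, and 0.621, 0.637 and 0.372 in WT crypts 385_1, 385_2 and 440_1. The Eed KO crypts were above the other 6 libraries. The ratio was lower in the 4 libraries that stood apart at the H2 region than in the WT crypts of run 385, but these 4 also had more counts of H2-DMb2. With H2-DMb2 added to H2-DMb1, the ratio was 1.92, 2.31 and 1.04 in Eed KO crypts, 0.720, 0.754 and 0.675 in Ezh2 KO crypts and 0.669, 0.682 and 0.639 in WT crypts. The Eed KO crypts stayed above the rest, and the 4 libraries were no longer below the WT crypts of run 385 as a set. The difference in ratio itself was not tested.

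Cd74 (chr18:60803848-60812646, GRCm38) had 343, 173 and 475 CPM in Eed KO crypts, against 475, 811 and 1372 CPM in WT crypts, so that the highest Eed KO crypt was within 1 CPM of the lowest WT crypt. Its log2 fold change was -1.38 (SE 0.31, adjusted p = 0.013), with an adjusted p of 0.081 in the block fit. In run 385 alone the change was -1.34 (SE 0.38, adjusted p = 0.036), and without WT crypt 385_2 it was -1.17 (adjusted p = 0.062).

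The call of 6 lower genes rested on both runs being fitted with run as a term. It became 5 in run 385 alone (Ciita, Cd74, H2-Aa, H2-DMa and H2-Ab1), where 11.8% of all genes were called lower. It was 3 with the replicate number as a block, where 3.93% of all genes were called lower, and 3 without the run term, where 5.07% were, in both cases Ciita, H2-DMa and H2-Ab1. In run 440 alone 3 genes were lower (H2-Aa, H2-DMa and H2-Ab1), where 3.20% of all genes were, and H2-Eb1 was higher.

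**Figure D2:**
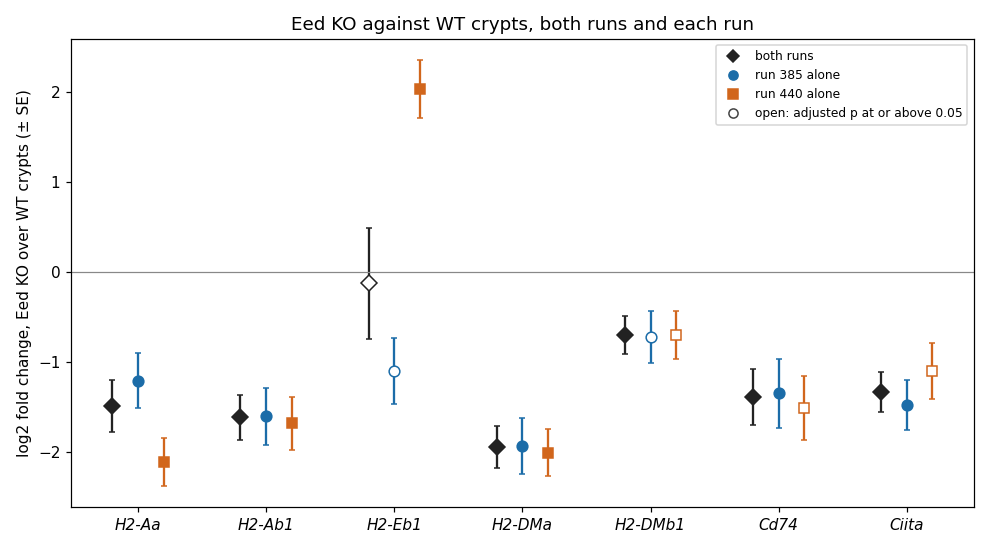
Log2 fold change of each gene, Eed KO over WT crypts (points) with its SE (bars), for both runs together (diamonds), run 385 alone (circles) and run 440 alone (squares); filled points have an adjusted p under 0.05 and open points do not. All genes except H2-Eb1 lie below 0 in all 3 fits, and H2-Eb1 ranges from -1.09 in run 385 to 2.04 in run 440.

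In Ezh2 KO crypts, none of the 7 genes passed the threshold against WT crypts. Genes called in this comparison were 3 of 14406, or 0.0208%, all lower, whereas DESeq2 called 68 genes and none of the 7. At an unadjusted p under 0.05 there were 1179 genes, among them H2-DMa, H2-Eb1 and H2-Ab1. The median log2 fold change of the 7 genes was -0.57, against 0.01 over all genes.

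In Ezh2 KO crypts, Ciita was at 58.6, 78.1 and 56.4 CPM, which spanned the 64.2 CPM of WT crypt 440_1 of the same run. Its log2 fold change was -0.11 (SE 0.27, adjusted p = 0.93), and it was 0.05 in run 440 alone. Cd74 was at 1453, 928 and 1045 CPM in Ezh2 KO crypts, against 1372 CPM in WT crypt 440_1, and changed by -0.20 (SE 0.37, adjusted p = 0.90). These 2 genes thus showed no consistent order between the groups within the run.

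The chain genes of all 3 Ezh2 KO crypts were below WT crypt 440_1. H2-Aa was at 416, 352 and 319 CPM in Ezh2 KO crypts against 654 CPM in that WT crypt, and H2-Ab1 at 382, 283 and 285 CPM against 545 CPM. H2-DMa was at 90.0, 74.7 and 73.2 CPM against 135 CPM, and H2-DMb1 at 37.5, 34.6 and 31.2 CPM against 50.2 CPM. With 1 WT crypt in that run, these differences rest on that library: in run 440 alone the log2 fold changes were -0.81, -0.74, -0.73 and -0.50 in this order, with adjusted p-values of 0.595 for the first 3 genes and 0.617 for H2-DMb1.

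H2-Eb1 had 32.7, 24.5 and 23.1 CPM in Ezh2 KO crypts, against 152, 276 and 37.9 CPM in WT crypts 385_1, 385_2 and 440_1. Its log2 fold change over both runs was -1.94 (SE 0.77, adjusted p = 0.59), and within run 440 it was -0.46 (SE 0.26, adjusted p = 0.66). Most of the difference over both runs thus lay between the 2 runs of WT crypts, where WT crypt 440_1 was below both WT crypts of run 385. Without WT crypt 440_1, H2-Eb1 was called lower, where 513 of 14705 genes were called in either direction, 259 of them lower. The WT crypts left were of run 385 and lacked the H2 pattern of the Ezh2 KO crypts. The run term there rested on the Eed KO crypts alone. Pattern and knockout cannot be told apart in that fit.

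Eed KO and Ezh2 KO crypts were also compared with each other, since both lack a subunit of the same complex. All the Ezh2 KO crypts had the H2 pattern that all the Eed KO crypts lacked. For the genes of the H2 region, pattern and knockout therefore cannot be told apart in this comparison. Ciita (log2 fold change -1.22, SE 0.27, adjusted p = 0.016) and H2-DMa (-1.21, SE 0.28, adjusted p = 0.017) were lower in Eed KO crypts, 2 of 7 genes, where 8.05% of 14406 genes were called lower and 20.0% in either direction. The adjusted p was 0.065 for Cd74 (-1.19, SE 0.39), 0.083 for H2-Ab1 (-0.87, SE 0.31), 0.115 for H2-Aa (-0.92, SE 0.37) and 0.69 for H2-DMb1 (-0.16, SE 0.26). H2-Eb1 ran the other way (1.82, SE 0.62, adjusted p = 0.074).

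The pairs of values in run 440, where both groups were sequenced together, were as follows. The single Eed KO crypt had 29.6 CPM of Ciita, against 56.4 to 78.1 CPM in Ezh2 KO crypts, and 33.0 CPM of H2-DMa, against 73.2 to 90.0 CPM. It had 153 CPM of H2-Eb1, against 23.1 to 32.7 CPM. It was thus below the Ezh2 KO crypts for 6 of the 7 genes and above them for H2-Eb1. The Eed KO crypt of this run also differed from the Ezh2 KO crypts in H2 pattern, and the part of that difference was not tested. DESeq2 called 6 of the 7 genes in this comparison, 5 lower and H2-Eb1 higher, where it called 27.0% of all genes. Without Eed KO crypt 440_1 the count was 1 (Ciita, lower), where 2157 of 14633 genes were called, 1025 of them lower.

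**Figure D3:**
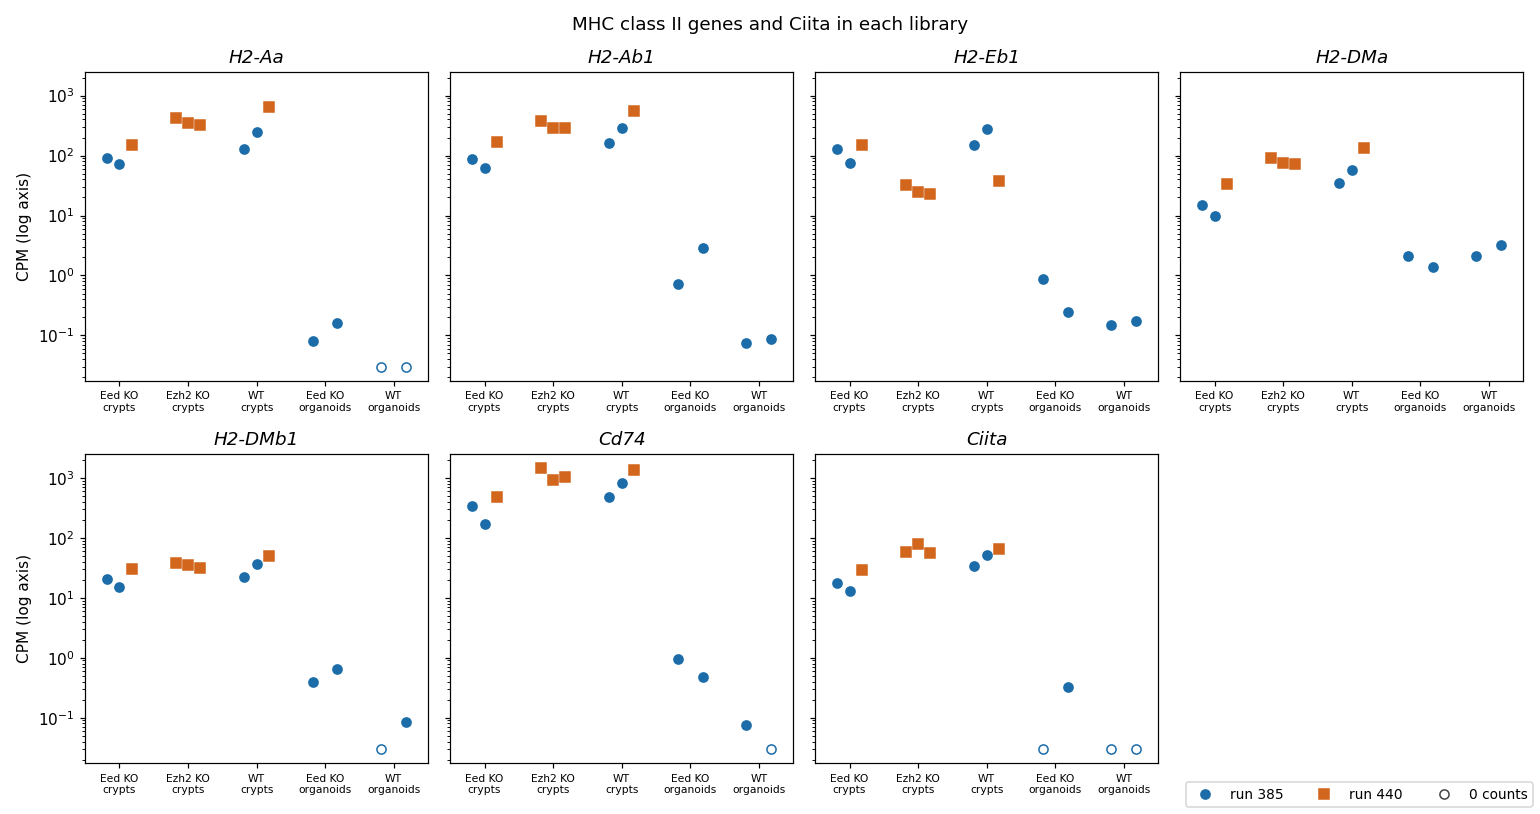
CPM of each of the 7 genes in every library on a log axis, with circles for run 385, squares for run 440 and open symbols at the bottom for libraries with 0 counts. Crypt libraries lie between 9.73 and 1453 CPM and no organoid library is above 3.26 CPM.

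In organoids the 7 genes were close to the limit of detection, whichever the genotype. Ciita had 0 and 4 counts in the Eed KO organoids and none in WT organoids, where 3 counts over both libraries would be 0.1201 CPM. H2-Aa had 1 and 2 counts in Eed KO organoids and none in WT organoids. H2-DMa was the only one of the 7 that passed the low-count filter, with 2.07 and 1.37 CPM in Eed KO organoids and 2.11 and 3.26 CPM in WT organoids. Its log2 fold change was -0.63 (SE 0.41, adjusted p = 0.36), so none of the 7 was called, where 18.2% of 12958 genes were called.

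Below the filter, H2-Aa and 4 other genes had more counts in each Eed KO organoid library than in either WT one. H2-Ab1 had 9 and 35 counts in Eed KO organoids and 1 and 1 in WT organoids, a ratio of pooled CPM of 22 (exact 95% interval 5.74 to 187, counting error only). Cd74 had 12 and 6 counts in Eed KO organoids against 1 and 0 in WT organoids, a ratio of 18 (2.84 to 750.1). H2-DMb1 had 5 and 8 counts against 0 and 1, a ratio of 13 (1.95 to 553), and H2-Eb1 had 11 and 3 counts against 2 and 2, a ratio of 3.50 (1.10 to 14.6).

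When no filter was applied, H2-Ab1 (adjusted p = 0.0028) and Cd74 (adjusted p = 0.018) were called higher in Eed KO organoids and the other 5 were not, where 11.0% of 20076 genes were called higher. The 2 Eed KO organoid libraries differed almost 4-fold in H2-Ab1, at 0.718 and 2.82 CPM, against 0.0752 and 0.0857 CPM in WT organoids. Genotype and the labelled strain cannot be told apart in the organoids.

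Crypts held far more RNA of all 7 genes than organoids of the same genotype. In the fit of all 13 libraries, 7 of 7 genes were higher in Eed KO crypts than in Eed KO organoids, where 15.6% of 14761 genes were called higher, with adjusted p-values of at most 0.00034. Likewise 7 of 7 were higher in WT crypts than in WT organoids, where 18.9% were called higher, with adjusted p-values of at most 0.0001. Folds are given below from counts pooled within run 385, which holds both tissues, since most organoid counts are near 0.

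Ciita had 385 counts in the 2 Eed KO crypts and 4 in the Eed KO organoids of that run, a ratio of CPM of 97.6 (exact 95% interval 37.8 to 360.0), and in WT crypts it was at least 353-fold higher than the 3-count floor over both WT organoids. H2-Aa was 692-fold (236 to 3359) higher in Eed KO crypts than in Eed KO organoids and at least 1547-fold higher in WT crypts than in WT organoids. The smallest ratios were those of H2-DMa, at 7.19 (5.21 to 10.1) between Eed KO crypts and Eed KO organoids and 17.3 (13.5 to 22.6) between WT crypts and WT organoids. H2-Ab1 and H2-DMb1 had ratios of 43.4 and 34.6 in Eed KO and of 2809 (777 to 23204) and 721 (129 to 28502) in WT. Crypts and organoids also differ in strain label and H2-T22 level for WT, in the length of induction and in culture. Within run 385 they also differ in sex for both genotypes, by the Xist and Ddx3y levels above. The parts of these cannot be told apart.

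The Eed effect in crypts minus the Eed effect in organoids was tested directly. It passed the threshold for H2-Ab1 (log2 difference -5.93, SE 0.97, adjusted p = 0.0091), H2-DMb1 (-4.13, SE 0.89, adjusted p = 0.027) and Cd74 (-5.28, SE 1.19, adjusted p = 0.033), 3 of 7 genes, where 2.99% of 14761 genes were called in that direction. These differences rest on the low counts in organoids given above. When either of the WT organoids was left out, none of the 7 genes was called. Over all genes, 81 of 15350 were called in that direction without WT organoid 385_1 and 113 of 15482 without 385_2.

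Levels within a library were compared between genes per kilobase of annotated exon (GENCODE M21), as CPM per kb. In Eed KO crypts, Cd74 averaged 197 ± 90.1 (SD, n = 3), H2-Eb1 61.2 ± 21.0, H2-Ab1 41.4 ± 21.2 and H2-Aa 27.6 ± 10.4 CPM per kb, followed by H2-DMb1 at 13.1 ± 4.57, H2-DMa at 5.57 ± 3.55 and Ciita at 2.12 ± 0.883 CPM per kb. In Ezh2 KO crypts, Cd74 averaged 680.2 ± 164 CPM per kb and H2-Eb1 was sixth, at 13.8 ± 2.67 CPM per kb, above Ciita at 6.75 ± 1.25 CPM per kb. H2-Eb1 was also sixth in WT crypt 440_1, which shared their H2 pattern, at 19.5 CPM per kb, below H2-DMb1 at 29.9 CPM per kb. In WT crypts, Cd74 averaged 528 ± 270, H2-Ab1 129 ± 76.1, H2-Aa 90.2 ± 72.6 and H2-Eb1 79.9 ± 61.2 CPM per kb. H2-DMa at 21.9 ± 15.2, H2-DMb1 at 21.4 ± 8.42 and Ciita at 5.21 ± 1.62 CPM per kb came below them. Cd74 was thus first and Ciita last in each crypt group, and Cd74 stood apart from the next gene by more than the sum of their SDs in all 3 crypt groups. In Eed KO crypts no other neighbours in the order did, and in WT crypts only Ciita, below H2-DMb1, did. In Ezh2 KO crypts the gaps from H2-Aa to H2-DMa, from H2-DMb1 to H2-Eb1 and from H2-Eb1 to Ciita were also larger than that sum. The large SD in WT crypts comes with the spread between runs described above.

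The pathway around Ciita was followed in lists of genes, whose counts of genes past the threshold are set beside the 10.6% lower and 13.4% higher over all genes in Eed KO against WT crypts. Of 10 tested genes of interferon gamma signalling to Ciita, 2 were lower in Eed KO crypts and none higher. Irf1, a transcription factor that activates a Ciita promoter, had 69.5, 55.2 and 157 CPM in Eed KO crypts and 181, 209 and 233 CPM in WT crypts (log2 fold change -1.28, SE 0.23, adjusted p = 0.0041). The groups did not overlap, and the receptor chain Ifngr1 was lower by 0.99 (log2 fold change -0.99, SE 0.14, adjusted p = 0.0016). Interferon gamma itself, Ifng, was at no more than 0.19 CPM in any library. The median log2 fold change of this list was -0.26. With the replicate block Ifngr1 kept its call and Irf1 did not (adjusted p = 0.059). Without the run term, too, Ifngr1 was called and Irf1 was not. DESeq2 called 4 genes lower, with Jak1 and Jak2 added, where it called 2042 of 14406 genes lower.

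Of 25 interferon gamma targets outside class II, 5 were lower and 2 were higher in Eed KO crypts. The 3 immunoproteasome subunits were lower: Psmb8 at 49.0, 37.7 and 89.0 CPM in Eed KO crypts against 118, 149 and 396 CPM in WT crypts (log2 fold change -1.80, SE 0.18, adjusted p = 0.00037), Psmb9 by -1.74 and Psmb10 by -1.12. Cd274, the checkpoint ligand PD-L1, was higher at 10.5, 10.5 and 5.41 CPM in Eed KO crypts against 2.85, 2.75 and 2.45 CPM in WT crypts (log2 fold change 1.65, SE 0.40, adjusted p = 0.016). The list thus moved in both directions, with a median of 0.02. The immunoproteasome subunits were called with any 1 crypt left out and with the replicate block, which called 3 genes lower and 1 higher, while Cd274 lost its call without WT crypt 385_1 or 385_2. Without the run term 1 was lower, namely Psmb8. Psmb8 and Psmb9 lie in the H2 region, next to the class II genes, where the Eed KO and WT crypts of run 440 differed in pattern. Within run 385, Psmb9 was at 26.9 and 21.7 CPM in Eed KO crypts and 65.1 and 80.2 CPM in WT crypts.

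Of 10 partners of Ciita at class II promoters, Rfx5 was higher (log2 fold change 0.57, SE 0.14, adjusted p = 0.017) and the acetyltransferase Kat2b lower (-0.85, SE 0.15, adjusted p = 0.0036). Rfx5 is the DNA-binding subunit of the RFX complex, and it stood at 49.0, 46.2 and 38.3 CPM in Eed KO crypts against 28.7, 32.3 and 28.5 CPM in WT crypts, without overlap. The other RFX subunits Rfxank and Rfxap did not pass the test. The median of the list was -0.20. With the replicate block neither passed (adjusted p = 0.116 for Rfx5 and 0.051 for Kat2b), and Rfx5 did not pass without Eed KO crypt 385_1 or either WT crypt of run 385.

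Of 12 genes of class II loading and turnover, 3 were higher in Eed KO crypts and 1 lower. The endosomal proteases Ctsd (log2 fold change 1.13, SE 0.15, adjusted p = 0.0013) and Ctsl (1.08, SE 0.22, adjusted p = 0.0081) and the endosomal tetraspanin Cd63 (0.58, SE 0.13, adjusted p = 0.011) were higher, and the thiol reductase Ifi30 was lower (-0.53, SE 0.15, adjusted p = 0.032). With the replicate block only Ctsd passed, with adjusted p-values of 0.063 for Ctsl, 0.104 for Cd63 and 0.157 for Ifi30. Of the other class II loci, 5 were tested, and H2-Ob, which with H2-Oa forms the inhibitor of H2-DM, was higher at 20.0, 14.97 and 5.82 CPM in Eed KO crypts against 6.23, 6.88 and 3.92 CPM in WT crypts (1.15, SE 0.27, adjusted p = 0.015). H2-Ob in Eed KO crypt 440_1 lay within the range of the WT crypts, and its adjusted p was 0.087 with the replicate block. H2-Ea-ps was lower, and its counts came from WT crypt 440_1 almost alone. In run 385 alone, H2-DMb2, H2-Eb2 and H2-Ob were higher, 3 of 4 tested, where 16.6% of 14053 genes were called higher. There H2-DMb2 was at 7.81 and 7.28 CPM in Eed KO crypts against 1.69 and 2.57 CPM in WT crypts. H2-Eb2 was at 6.17 and 5.84 CPM against 2.22 and 1.93 CPM. In run 440, where the H2 pattern differed, H2-DMb2 was at 3.995 CPM in Eed KO against 36.1 CPM in WT. H2-Eb2 was at 1.47 against 2.57 CPM. Of 5 tested costimulatory genes, Cd80, a ligand of CD28, was higher (2.59, SE 0.47, adjusted p = 0.0048), as was Cd274, which is also in this list. Cd80 was too low to be tested in the block fit, where its value in every crypt was below 2 CPM.

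In Ezh2 KO against WT crypts no gene of these lists passed the threshold. In Eed KO organoids, 2 of 10 tested genes of interferon gamma signalling, 6 of 16 targets outside class II and 4 of 11 genes of loading and turnover were higher, and none of these was lower, where 13.5% of 12958 genes were called higher and 4.63% lower. Among them, Cxcl10 was at 8.85 and 8.93 CPM in Eed KO organoids against 0.0752 and 0.0857 CPM in WT organoids (log2 fold change 6.62, SE 0.45, adjusted p = 0.00022). Gbp2 was at 1.28 and 2.50 CPM in Eed KO organoids and had no count in WT organoids. Nlrc5, the regulator of class I genes that is related to Ciita, had 1.12 and 2.90 CPM in Eed KO organoids, against 0 and 0.0857 CPM in WT organoids.

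Since immune cells express class II genes, their markers were read beside these results. The 8 B cell markers summed to 117, 92.7 and 36.8 CPM in Eed KO crypts 385_1, 385_2 and 440_1, to 11.5 to 17.0 CPM in Ezh2 KO crypts and to 40.2 to 46.6 CPM in WT crypts. The 8 dendritic cell markers summed to 11.7 to 14.7 CPM in Eed KO crypts, 2.77 to 3.75 CPM in Ezh2 KO crypts and 2.29 to 5.39 CPM in WT crypts. The 11 macrophage markers summed to 128 to 202 CPM in Eed KO crypts, 44.7 to 50.6 CPM in Ezh2 KO crypts and 80.2 to 122 CPM in WT crypts. Most of the macrophage sum in Eed KO crypts was Cd14, at 94.5, 125.5 and 86.4 CPM against 42.2, 68.9 and 25.1 CPM in WT crypts. Without Cd14 the other 10 macrophage markers summed to 56.0, 76.0 and 41.8 CPM in Eed KO crypts and to 48.1, 53.4 and 55.1 CPM in WT crypts. In run 385 these sums were thus higher in Eed KO crypts than in WT crypts, with or without Cd14. In run 440 the dendritic cell sum was higher in the Eed KO crypt than in the WT crypt, and the B cell sum and the macrophage sum without Cd14 were lower. Mast cell markers summed to 90.5 CPM in Eed KO crypt 440_1 and to at most 10.1 CPM in the other crypts. Mesenchymal markers summed to 80.2 to 127 CPM in Eed KO crypts, to 264, 80.2 and 267 CPM in Ezh2 KO crypts and to 36.1, 82.3 and 459 CPM in WT crypts 385_1, 385_2 and 440_1.

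Past the threshold in Eed KO against WT crypts were 2 of 7 general leukocyte markers, 2 of 4 tested dendritic cell markers and none of 8 B cell markers, all higher. Of 9 tested macrophage markers Cd14 was higher and Itgam lower. Itgax, which encodes the integrin CD11c of dendritic cells, was at 3.28, 2.79 and 2.94 CPM in Eed KO crypts and 0.979, 0.458 and 0.919 CPM in WT crypts (log2 fold change 1.92, SE 0.38, adjusted p = 0.0070, and 0.051 with the replicate block). The other dendritic cell marker that passed was the transcription factor Zbtb46, at 6.56, 5.08 and 5.52 CPM in Eed KO crypts and 0.801, 1.01 and 1.96 CPM in WT crypts (log2 fold change 2.24, SE 0.40, adjusted p = 0.0045). The general leukocyte gene Ptprc was at 63.9, 55.5 and 4.52 CPM in Eed KO crypts against 23.6, 20.8 and 14.1 CPM in WT crypts, opposite in the 2 runs. In run 385 alone, 5 of 7 leukocyte, 7 of 8 B cell and 6 of 10 macrophage markers were higher, where 16.6% of 14053 genes were called higher. With both runs, 6 B cell markers were higher when either the Eed KO or the WT crypt of run 440 was left out. Over all genes, 2206 of 14633 were called higher without that Eed KO crypt and 2433 of 14705 without that WT crypt. Ezh2 KO crypts had the lowest sums of B cell and macrophage markers among the crypt groups.

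In organoids the defining markers Itgax, Adgre1 and Cd3e had no count in any of the 4 libraries. Csf1r, the receptor of macrophage growth factor CSF1, had 52 and 11 counts in Eed KO organoids and 16 and 2 in WT organoids (adjusted p = 0.30), and Ptprc had 3 and 6 counts in Eed KO organoids and none in WT organoids. Zbtb46 was higher in Eed KO organoids, at 1.59 and 0.885 CPM against 0.226 and 0.257 CPM in WT organoids (log2 fold change 2.32, SE 0.60, adjusted p = 0.038). The B cell markers summed to 0.638 and 0.885 CPM in Eed KO and 0.902 and 2.06 CPM in WT organoids. The general leukocyte sum was 110 to 117 CPM in Eed KO organoids and 95.7 to 105 CPM in WT organoids, nearly all from Lcp1. Macrophage markers summed to 70.2 and 50.1 CPM in Eed KO organoids and 15.5 and 13.2 CPM in WT organoids, most of it Cd14 in Eed KO. Among epithelial markers, Epcam was at 758, 796 and 1076 CPM in Eed KO crypts and 1313 to 1640 CPM in WT crypts (log2 fold change -0.71, SE 0.14, adjusted p = 0.0069, and 0.083 with the replicate block), and the intestinal transcription factor Cdx2 was lower (log2 fold change -2.005, SE 0.34, adjusted p = 0.0037). Of 8 epithelial markers, these 2 were lower and none higher. The summed epithelial markers were at 4732 to 8969 CPM in Eed KO crypts, 7832 to 8922 CPM in Ezh2 KO crypts and 6508 to 8226 CPM in WT crypts. Whether the class II RNA of the crypts came from epithelium or from immune cells was not tested.

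**Figure D4:**
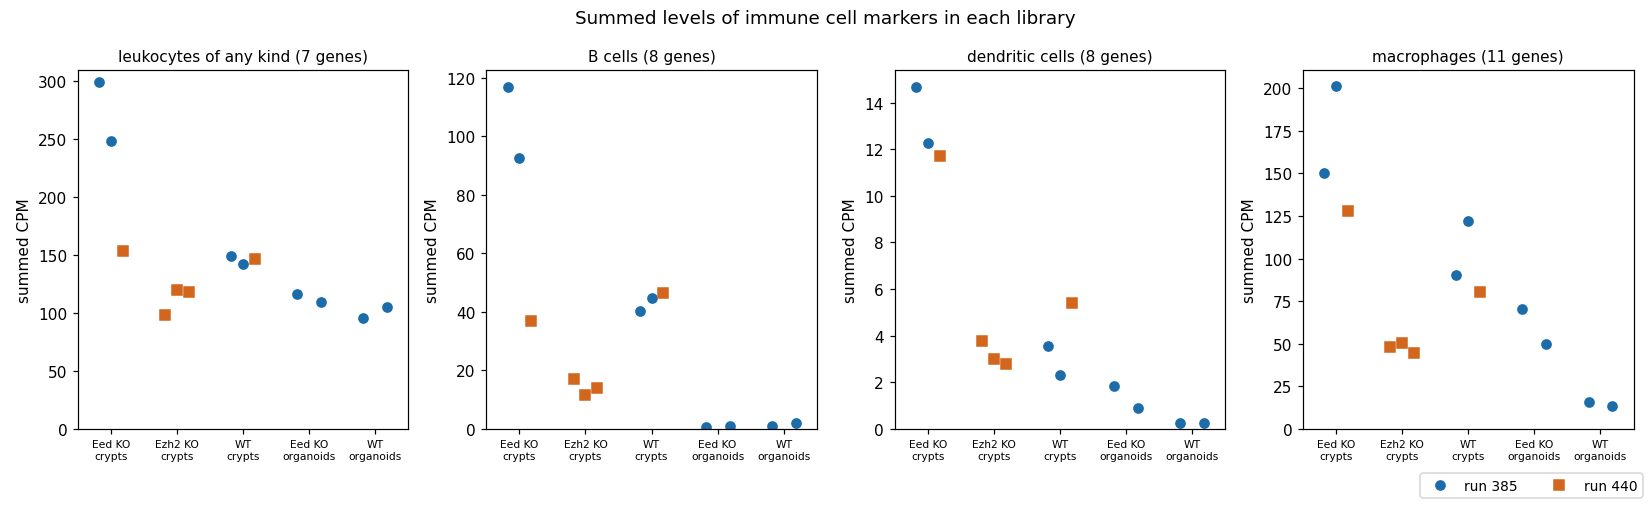
Summed CPM of the markers of leukocytes, B cells, dendritic cells and macrophages in each library, with circles for run 385 and squares for run 440. In run 385 all 4 sums are higher in the Eed KO crypts than in the WT crypts, with B cell sums of 117 and 92.7 CPM against 40.2 and 44.7 CPM.

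The 5 other genes whose log2 CPM followed the mean of the 7 genes most closely over the 13 libraries were Gsdmc2 (Pearson r = 0.986), AW112010 (0.986), Sp140 (0.982), Gpr55 (0.975) and Kcnk6 (0.974). All 13 points share the difference between crypts and organoids, and within the 9 crypts r ran from 0.581 for Sp140 to 0.836 for Kcnk6. Gsdmc2, a gasdermin gene, averaged 23.5 ± 13.7 CPM in Eed KO crypts, 46.7 ± 5.68 CPM in Ezh2 KO crypts and 70.2 ± 14.8 CPM in WT crypts (SD, n = 3 each). In organoids it was at 0.558 to 1.05 CPM in Eed KO and 0.0857 to 0.226 CPM in WT.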

How the data were processed

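The members and all gene lists were chosen with earlier results of these data known. The files deposited by the authors hold raw counts of reads for each gene, in 1 table per run, and 21420 identifiers were in both. The build was GRCm38 and the tools TopHat2 2.0.12, Bowtie 0.12.9, HTSeq and DESeq2, per the submitters' processing notes; the use of strand in counting is not stated in the labels.

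CPM are deposited counts divided by library sizes that were adjusted by TMM over 13 libraries. Fits used edgeR 4.0.16 in R 4.3.3 (quasi-likelihood F test, robust, TMM, minimum count 10, minimum total 15), with Benjamini-Hochberg adjustment over all genes tested and a threshold of 0.05. The 9 crypts were fitted with group and run as terms (5 residual degrees of freedom), the 4 organoids on their own (2) and all 13 libraries together (7). SE were derived from the F statistic. The fits were tested on simulated data. DESeq2 1.42.0 was an alternative. Likeness between genes used log2 of CPM plus 0.5.

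Depth was 11421666 to 18300644 counts per library, and intervals and floors cover counting error only. Deviations of same-numbered Eed KO and WT crypts had correlations of 0.18, 0.39 and 0.35, and such pairs also share a run. Eed KO crypt 385_1 and WT crypt 385_2, of different number, reached 0.39 as well. The other pairs of different number ran from -0.47 to 0.0069. Within run 385 the number thus did not mark the pairs that deviated together. The replicate block is given where it changes a call. Named genes were all members, up to 4 genes past the threshold per list and comparison with the largest change, markers near 0 and the 5 genes most alike. H2-T22, Xist, Ddx3y, Ifng, Jak1, Jak2, Rfxank, Rfxap, Ptprc, Csf1r, H2-DMb2, H2-Eb2 and Lcp1 fell outside that rule and were chosen after their values were seen.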

Additional observations from a re-analysis of the deposited data

Results flagged for a closer look

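A difference between crypts and organoids was found for 3 of the 7 genes: the Eed effect (Eed KO over WT, log2) in crypts minus that in organoids was -5.28 for Cd74, -5.93 for H2-Ab1 and -4.13 for H2-DMb1 by the interaction term of the edgeR fit over 13 libraries, with adjusted p-values of 0.033, 0.0091 and 0.027. In crypts these genes were lower in Eed KO, and in organoids they had 18 against 1, 44 against 2 and 13 against 1 counts in Eed KO against WT. Strain label and genotype cannot be told apart in the organoids. No group had the 4 libraries needed to ask whether 1 library lay far from the others.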

How the results depend on the processing

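For Eed KO against WT crypts, 6 genes were called, and DESeq2, its size factors in edgeR and no low-count filter called the same 6. With the replicate block 3 were called, without the run term 3, and with 1 library left out 4 to 6. In that comparison H2-Eb1 ran from -1.14 to 0.52 (log2) over the libraries left out and was 2.04 in run 440 alone, a fit added after the data were seen. For Ezh2 KO against WT crypts, 0 were called, and 0 to 1 with a library left out (H2-Eb1 without WT crypt 440_1). Uncalled values turned positive without the run term (H2-Aa 0.077, H2-DMa 0.063, Cd74 0.36, Ciita 0.37), and in run 440 alone for Ciita (0.048). With a library left out H2-Aa ran from -0.81 to 0.10 and Ciita from -0.33 to 0.049. For Eed KO against Ezh2 KO crypts, 2 were called, 6 by DESeq2 and 6 without the run term, and 1 to 5 with a library left out. Over all 14406 genes, DESeq2 called 3888 in that comparison, and 3084 were called without the run term. There H2-Eb1 ran from -0.68 (without Eed KO crypt 440_1) to 2.52. The count of 1 came without Eed KO crypt 440_1 or Ezh2 KO crypt 440_2, and 4 and 5 came without WT crypts 440_1 and 385_1. For Eed KO against WT organoids, 0 were called, 2 with no low-count filter, and 0 to 1 with a library left out (H2-Ab1 without Eed KO organoid 385_1). The Eed effect in crypts minus that in organoids was called for 3 genes, for 1 without the run term and for 0 to 3 with a library left out (0 without either WT organoid, 1 without Eed KO organoid 385_1). The causes of these changes were not tested. All 7 genes stayed higher in crypts than in organoids of the same genotype in each alternative run. Of 694 gene-level values under alternatives, 625 kept their direction and side of the threshold and 13 reversed. Among the 7 genes the replicate block changed no other call. Depth limits the organoids most, where 3 counts are 0.1201 CPM over both WT libraries.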
